A study of Canis lupus familiaris with 69 samples.

Results

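Genes of epithelial ion and fluid transport were followed in the endometrium of 69 female dogs, with 1 microarray per dog. The set holds 55 genes of the 15947 that carried a single gene symbol in the platform annotation. They are CFTR, ANO1, 3 calcium-activated chloride channel regulators (CLCA), 7 voltage-gated chloride channels and exchangers (CLCN) and the 4 subunits of the epithelial sodium channel (SCNN1). The others are 5 genes of the Na,K-ATPase subunit family (ATP1), and 9 SLC4, 7 SLC9, 8 SLC12 and 10 SLC26 transporters. Genes were taken by symbol and family, a choice made with earlier results of these data known. A gene with several probe sets was read from its brightest probe set, by the mean of the 69 arrays.

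The dogs fell into 4 diagnoses: pyometra (n = 17), a uterus filled with pus, mucometra (n = 15), one filled with mucus, cystic endometrial hyperplasia (CEH, n = 16), a thickened lining with cystic glands, and healthy endometrium in diestrus (n = 21), the luteal phase of the cycle. The 15 samples titled mucometra carry Hemometra, a blood-filled uterus, as their diagnosis tag in GEO. The titles and the study's methods call them mucometra, and that name is kept. By the study's methods the pyometra group joins open-cervix and closed-cervix cases, which the labels do not separate, so they were pooled. All were intact dogs whose ovaries and uterus were removed at a veterinary hospital, and the lining was dissected from frozen tissue with the luminal content left out. The healthy dogs were in early diestrus, whereas the diseased dogs also included anestrus animals and more animals given progesterone-like compounds, above all in pyometra. By the study's clinical data the healthy dogs were also younger by median age and more often mixed-breed, with higher serum progesterone than each diseased group. GEO's labels give diagnosis only. Age, breed, serum progesterone, cycle phase and earlier hormone treatment thus cannot be told apart from diagnosis here.

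Glands and surface epithelium move fluid by moving salt. In secretion, chloride enters the cell across its base through SLC12A2, driven by the sodium gradient that the Na,K-ATPase maintains, bicarbonate enters with sodium through SLC4A4, and both leave at the lumen through CFTR and through SLC26 exchangers. In absorption, sodium enters from the lumen through the epithelial sodium channel (ENaC), built of the subunits SCNN1A, SCNN1B and SCNN1G, and water follows. In the uterus this balance sets the volume and composition of the luminal fluid over the cycle.

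Values were log2 expression after robust multi-array averaging (RMA), and array medians ran from 6.20 to 6.34. Calls required a change of 2-fold or more and an adjusted p under 0.05, from limma with Benjamini-Hochberg adjustment over all 15947 genes, which is also the source of each adjusted p given for a gene. Changes are log2 fold changes ± their standard error (SE). The arrays carry no detection calls, so a low value is not a proof of absence, and the levels of different genes were not compared with each other. The endometrium was measured in bulk, where fewer cells of a type and less RNA per cell cannot be told apart. EPCAM, 1 of 19 measured markers of simple epithelium, was named after its values were seen. Its median was 8.66 in pyometra, 8.95 in mucometra, 9.40 in CEH and 9.57 in diestrus. Of the 19 markers, 11 were lower and 4 higher in pyometra against diestrus by limma's adjusted p alone, where 28.7% and 22.7% of all genes were.

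In the fluid-filled uteri as a class, taken as the mean of pyometra and mucometra minus the mean of CEH and diestrus, 7 of the 55 genes were called, 4 higher and 3 lower, where 4.55% of all genes were called (3.23% higher and 1.32% lower). CFTR, SLC26A4, SLC4A4 and SCNN1B rose, and SLC12A2, SLC12A8 and SCNN1A fell. Against diestrus in pyometra, 12 of the 55 were called, 8 higher and 4 lower, against 9.98% of all genes (6.72% higher and 3.26% lower). In mucometra 9 were called, 5 higher and 4 lower, against 6.35% of all genes (3.56% and 2.8%), and in CEH 5 were called, 3 higher and 2 lower, against 1.82% (0.865% and 0.953%). These 3 comparisons share the same 21 diestrus dogs. The 12 genes called in pyometra included every gene called in any of the 7 comparisons made. By adjusted p alone, with no fold threshold, 28 of the 55 passed in the fluid-filled comparison (48% of all genes), 36 in pyometra (51.3%), 24 in mucometra (47.1%) and 12 in CEH (26.3%) against diestrus. Of the 28, 9 were higher and 19 lower, where 21.5% and 26.5% of all genes were. In pyometra 14 were higher and 22 lower, against 22.7% and 28.7%. Mucometra had 10 higher and 14 lower (22.4% and 24.8%), and CEH had 8 and 4 (12.8% and 13.4%). The same rule passed 12 in pyometra against mucometra (35.5%), 18 in pyometra against CEH (39.5%) and 1 in mucometra against CEH (1.43%). The median absolute log2 fold change in the fluid-filled comparison was 0.276 over the 55 genes and 0.148 over all genes. Of the 7 comparisons, only pyometra against mucometra had a smaller median over the 55 (0.154) than over all genes (0.179).

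**Figure D1:**
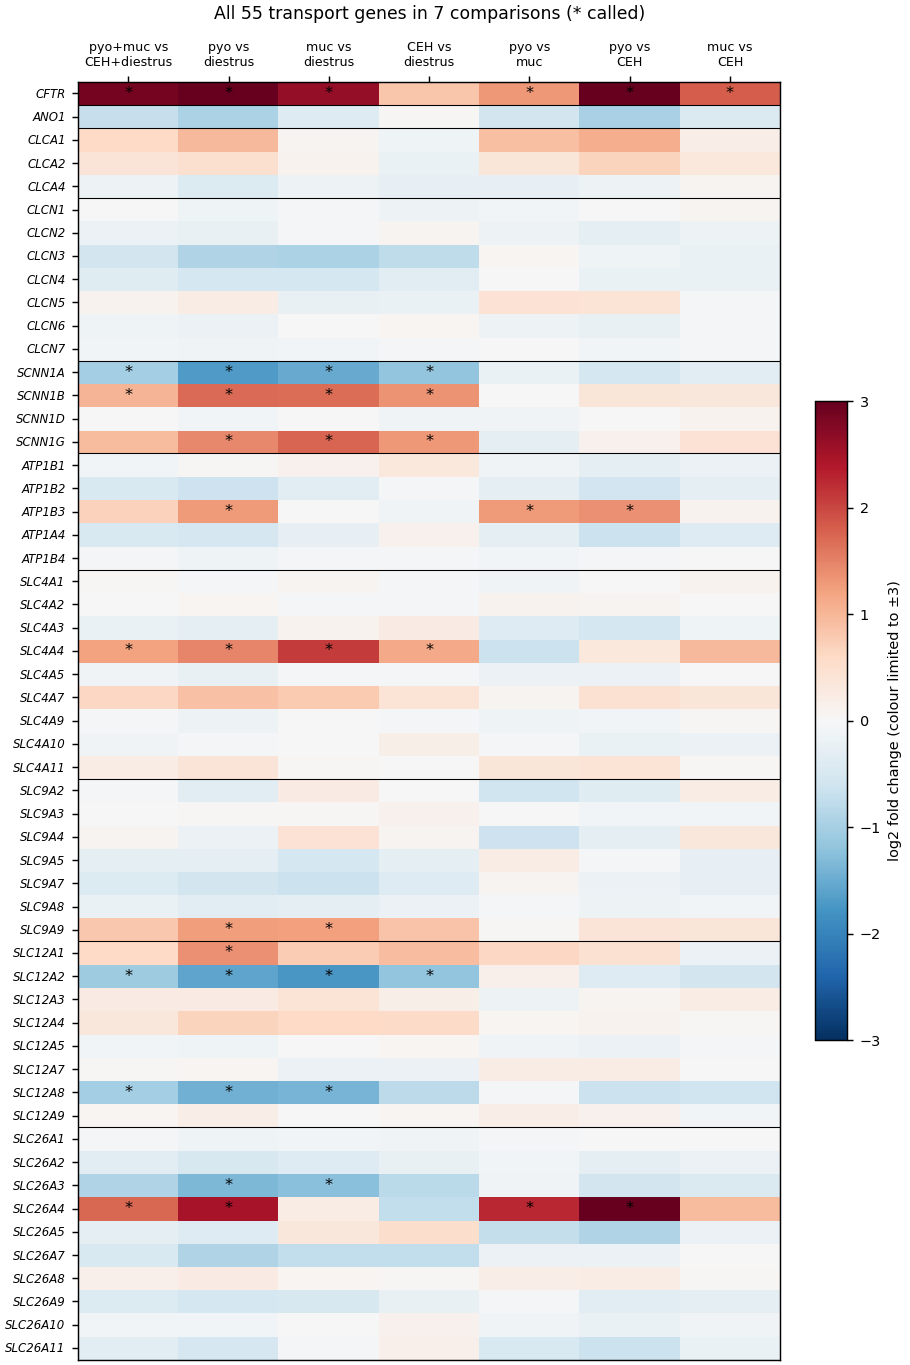
Log2 fold change of all 55 transport genes (rows, grouped by family) in 7 comparisons (columns, with pyometra written pyo and mucometra written muc), red for higher and blue for lower in the group named first, with a star where a gene was called. Stars lie on 12 genes, CFTR carries one in every comparison except CEH against diestrus, and most CLCN, SLC4 and SLC9 genes are near white.

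CFTR, the cAMP-gated chloride and bicarbonate channel that is lost in cystic fibrosis, showed the largest change of the set in the fluid-filled comparison. Its log2 expression had a lowest, median and highest value of 8.41, 9.96 and 10.84 in pyometra, 5.46, 8.80 and 9.49 in mucometra, 4.54, 6.43 and 9.39 in CEH, and 4.49, 5.18 and 7.91 in diestrus. All 17 dogs with pyometra lay above every diestrus dog, as did 12 of 15 with mucometra and 3 of 16 with CEH. Against diestrus, CFTR rose 15.4-fold in pyometra (3.94 ± 0.31, adjusted p = 2.5e-13). In mucometra the rise was 6.19-fold (2.63 ± 0.37, adjusted p = 3.78e-07). In CEH the difference of 0.82 ± 0.43 did not pass (adjusted p = 0.158). CFTR and SLC9A9 were the 2 members whose values did not overlap between pyometra and diestrus, a separation that 1.45% of all genes showed. In mucometra the 3 dogs within the diestrus range held 5.46, 6.39 and 7.30, and the other 12 held 8.08 or more.

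Between the lesions, CFTR was higher in pyometra than in mucometra (1.31 ± 0.33, adjusted p = 0.0028) and than in CEH (3.12 ± 0.41, adjusted p = 1.03e-06). It was also the only one of the 55 called in mucometra against CEH (1.81 ± 0.48, adjusted p = 0.0497), where 0.144% of all genes were called (0.138% higher). That last call lies at the threshold and is lost when any 1 of 21 of the 31 dogs is left out, with adjusted p from 0.0191 to 0.0849 over the dogs left out.

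ANO1, a calcium-activated chloride channel, was not called. Its values ran from 5.67 to 9.75 with a median of 6.66 in pyometra, from 5.87 to 9.04 with 7.50 in mucometra, from 6.67 to 10.31 with 7.72 in CEH, and from 6.08 to 10.82 with 7.63 in diestrus. The difference of pyometra from diestrus was -0.95 ± 0.34 (adjusted p = 0.017), short of 2-fold, and that of mucometra was -0.39 ± 0.30 (adjusted p = 0.31). ANO1 and CFTR, both chloride channels of the luminal side in many epithelia, thus had values of opposite sign in pyometra.

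The 3 CLCA genes and the 7 CLCN genes had no call in any of the 7 comparisons. CLCA1, a secreted protein of mucus-making epithelia, spread widely within pyometra, with an SD of 2.23 that was larger than that of 99.9% of genes in those dogs. It had a median of 5.30 and a highest value of 12.82 in pyometra, against a highest value of 6.75 in mucometra, 5.56 in CEH and 6.13 in diestrus. The 4 dogs highest for CLCA1 in pyometra held 12.82, 9.49, 9.15 and 6.25, and the group difference from diestrus did not pass (0.97 ± 0.48, adjusted p = 0.0876). CLCN3, a chloride-proton exchanger of endosomes, passed the adjusted p but not the fold threshold in all 3 lesions, at -0.90 ± 0.10 in pyometra (1.14e-09), -0.96 ± 0.12 in mucometra (1.98e-08) and -0.77 ± 0.14 in CEH (0.00027).

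The ENaC subunits split. SCNN1A, the alpha subunit that the channel needs to conduct, fell in all 3 lesions against diestrus, whereas SCNN1B and SCNN1G, the beta and gamma subunits, rose in all 3. SCNN1A held 7.41, 8.31 and 10.70 as lowest, median and highest value in pyometra, 6.77, 8.61 and 10.12 in mucometra, 7.02, 9.03 and 10.79 in CEH, and 9.01, 10.25 and 10.76 in diestrus. Below every diestrus dog lay 12 of 17 dogs with pyometra, 8 of 15 with mucometra and 8 of 16 with CEH. Its log2 fold changes were -1.70 ± 0.21 in pyometra (adjusted p = 1.11e-08), -1.51 ± 0.26 in mucometra (1e-05) and -1.18 ± 0.26 in CEH (0.00123).

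SCNN1B held 7.62, 8.84 and 10.31 in pyometra, 7.52, 8.79 and 9.95 in mucometra, 7.01, 8.55 and 11.03 in CEH, and 5.92, 6.96 and 10.18 in diestrus. Its medians were thus nearly level across the 3 lesions and lower in diestrus, with ranges that overlapped. The log2 fold changes against diestrus were 1.70 ± 0.29 in pyometra (adjusted p = 5.14e-06), 1.68 ± 0.31 in mucometra (2.07e-05) and 1.35 ± 0.34 in CEH (0.00339). SCNN1G held 5.64, 6.99 and 8.42 in pyometra, 6.23, 6.87 and 8.51 in mucometra, 4.60, 6.75 and 9.94 in CEH, and 4.66, 5.15 and 8.44 in diestrus. Its changes were 1.44 ± 0.31 in pyometra (0.000154), 1.74 ± 0.30 in mucometra (1.13e-05) and 1.30 ± 0.40 in CEH (0.0161). SCNN1D, the delta subunit, differed by at most 0.12 in size in any comparison and was not called. None of the 4 subunits was called between pyometra and mucometra, where the differences were -0.19 ± 0.34 for SCNN1A, 0.02 ± 0.25 for SCNN1B and -0.30 ± 0.30 for SCNN1G.

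A pair of diestrus dogs stood apart for these genes. Dogs 25 and 152 held 10.18 and 9.60 for SCNN1B and 8.44 and 8.08 for SCNN1G, while the other 19 diestrus dogs reached no more than 7.73 and 6.55. The same dogs held 7.99 and 8.20 for SLC12A2, where the other 19 held 9.24 or more, and 9.86 and 11.19 for SLC26A4, where the others had a median of 5.26. Their SCNN1A values of 10.62 and 10.64 were within the range of the others. Without these dogs the counts of called genes against diestrus stayed at 12 in pyometra, 9 in mucometra and 5 in CEH, and the change of SCNN1G was 1.74 ± 0.23 in pyometra, 2.03 ± 0.21 in mucometra and 1.60 ± 0.35 in CEH.

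**Figure D2:**
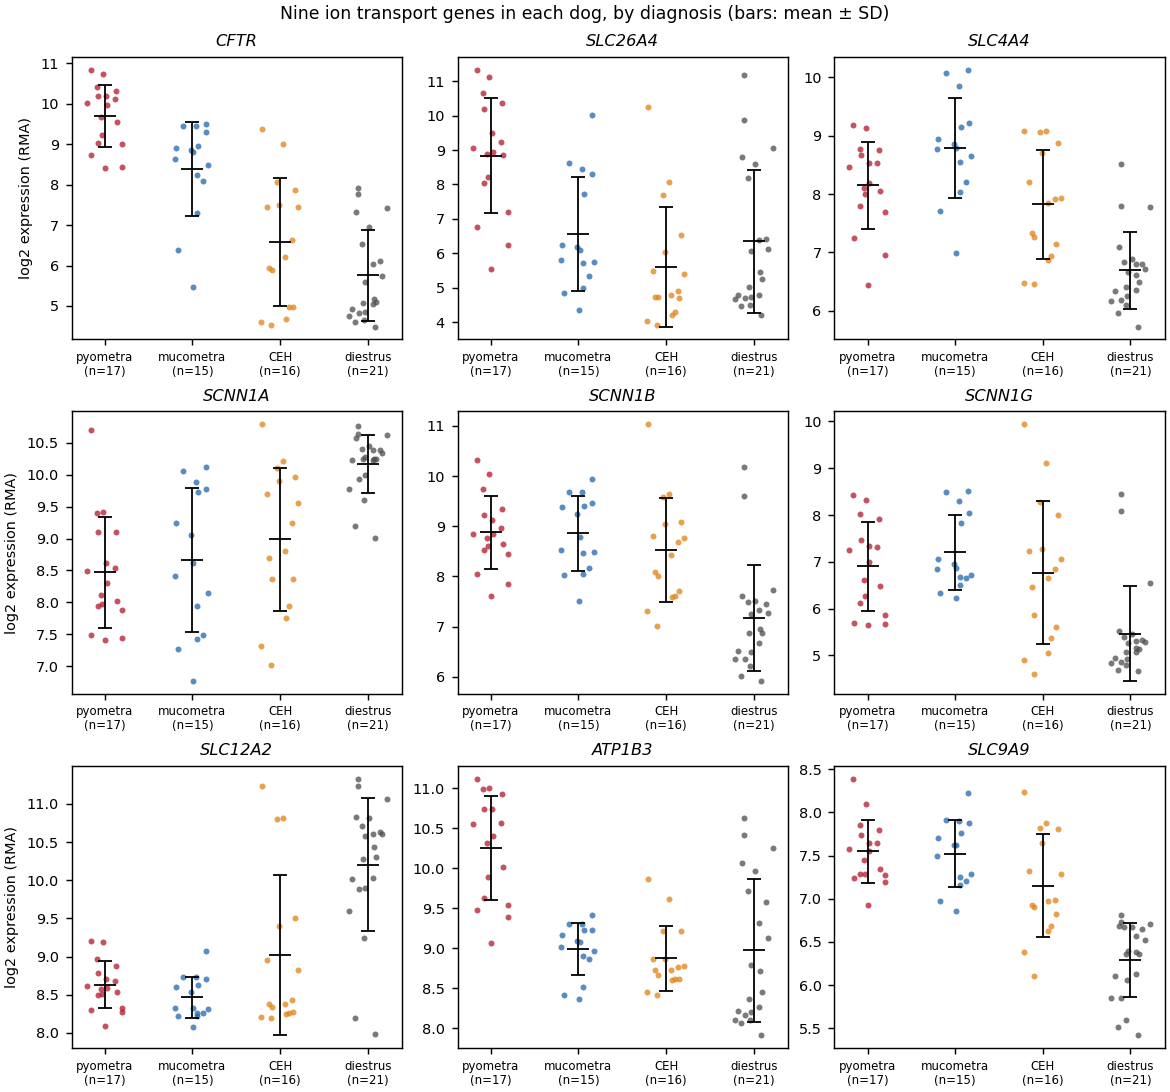
Log2 expression (RMA, vertical axis) of 9 transport genes in each dog, by diagnosis (17 pyometra, 15 mucometra, 16 CEH and 21 diestrus), with the mean ± SD as bars. CFTR in all 17 dogs with pyometra lies above every diestrus dog, SCNN1A is lower and SCNN1B and SCNN1G higher in the lesions than in diestrus, and 2 diestrus dogs lie apart for SCNN1B, SCNN1G and SLC12A2.

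Of the gene family named for the subunits of the Na,K-ATPase, the pump at the base of the cell, 5 genes were analysed. ATP1B3, the beta 3 subunit, rose in pyometra alone. It held 9.07, 10.40 and 11.12 as lowest, median and highest value in pyometra, 8.36, 9.08 and 9.41 in mucometra, 8.42, 8.75 and 9.86 in CEH, and 7.91, 8.72 and 10.63 in diestrus. Above every dog with mucometra lay 15 of 17 dogs with pyometra and 7 of 21 diestrus dogs. Only 6 of the 17 dogs with pyometra lay above every diestrus dog. The change was 1.29 ± 0.25 against diestrus (adjusted p = 4.37e-05), 1.27 ± 0.18 against mucometra (3.15e-05) and 1.38 ± 0.18 against CEH (1.16e-06). In mucometra and CEH it differed from diestrus by 0.02 ± 0.24 (0.957) and -0.10 ± 0.24 (0.806). ATP1B1, the beta 1 subunit of most epithelia, had medians of 9.41 in pyometra, 9.52 in mucometra, 9.81 in CEH and 9.49 in diestrus. Its differences from diestrus were 0.03 ± 0.23, 0.12 ± 0.24 and 0.30 ± 0.24, none of which passed.

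Among the 8 SLC12 cation-chloride cotransporters, 2 fell and 1 rose in pyometra against diestrus. SLC12A2 (NKCC1), which loads sodium, potassium and chloride into secretory cells, held 8.09, 8.59 and 9.21 in pyometra, 8.08, 8.33 and 9.07 in mucometra, 8.19, 8.41 and 11.24 in CEH, and 7.99, 10.44 and 11.33 in diestrus. Every dog with pyometra or mucometra lay below the 19 diestrus dogs other than the pair named above. The fall against diestrus was 2.97-fold in pyometra (-1.57 ± 0.22, adjusted p = 9.17e-08). SLC12A2 fell 3.33-fold in mucometra (-1.74 ± 0.23, 8.2e-08), and in CEH 2.28-fold (-1.19 ± 0.31, 0.00442). The spread was narrow in the fluid-filled uteri, with an SD of 0.309 in pyometra and 0.270 in mucometra, and wide in CEH (1.047) and diestrus (0.873). In CEH 3 dogs held 10.80, 10.82 and 11.24, near the diestrus median.

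SLC12A8, a member of this family with a debated role, fell in pyometra (-1.43 ± 0.27, adjusted p = 2.91e-05) and mucometra (-1.40 ± 0.30, 0.000171), with medians of 5.34 in pyometra, 5.35 in mucometra, 5.62 in CEH and 6.52 in diestrus. In CEH its difference of -0.79 ± 0.33 did not pass (0.0748). SLC12A1, the NKCC2 cotransporter of the kidney's thick ascending limb, rose in pyometra (1.38 ± 0.34, 0.000845). Its values were low, with a mean over all dogs of 4.31 where 10% of genes had a mean of 4.45 or less, and it rested on a subset: 10 of 17 dogs with pyometra lay above the highest diestrus value of 3.94, up to 8.57. In CEH the highest dog held 10.49 and the median was 3.67. SLC12A4 (KCC1), a potassium-chloride cotransporter, passed the adjusted p but not the fold threshold, at 0.67 ± 0.10 in pyometra, 0.60 ± 0.10 in mucometra and 0.57 ± 0.11 in CEH.

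**Figure D3:**
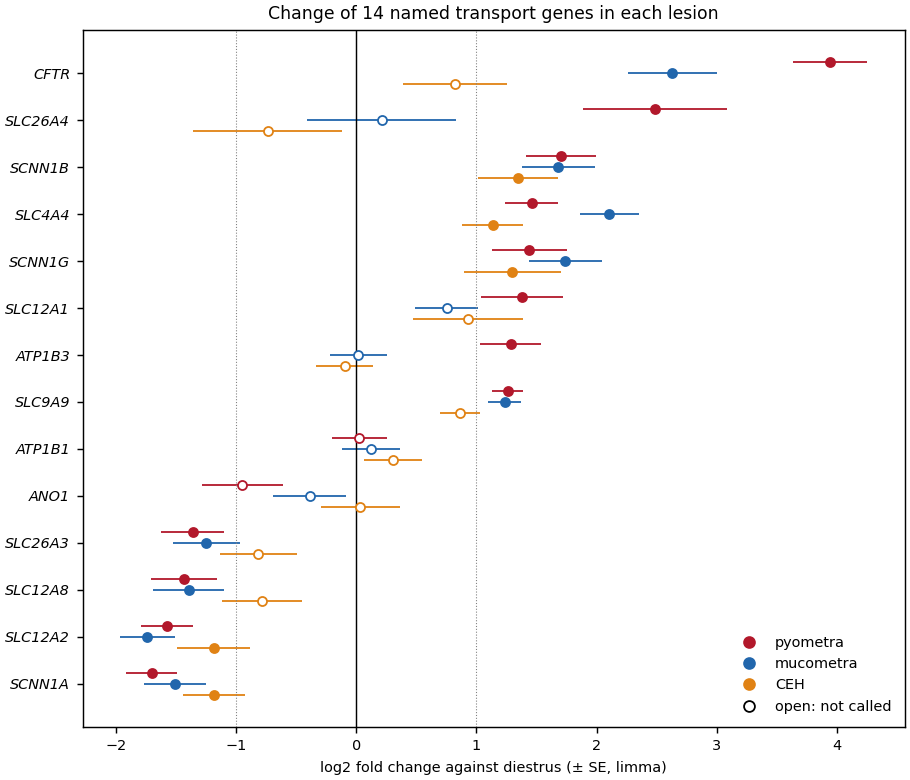
Log2 fold change against diestrus (horizontal axis, points with bars of ± SE from limma) of 14 transport genes in pyometra, mucometra and CEH, with filled points where the gene was called and dotted lines at a 2-fold change. ATP1B3 and SLC26A4 have a filled point in pyometra only, and SCNN1A, SCNN1B, SCNN1G, SLC12A2 and SLC4A4 have filled points in all 3 lesions.

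Of the 9 SLC4 bicarbonate transporters, SLC4A4 alone was called. SLC4A4 (NBCe1), the sodium-bicarbonate cotransporter that brings bicarbonate into secretory cells, held 6.45, 8.19 and 9.18 in pyometra, 6.99, 8.79 and 10.13 in mucometra, 6.46, 7.88 and 9.09 in CEH, and 5.73, 6.61 and 8.51 in diestrus. Above every diestrus dog lay 7 of 17 dogs with pyometra, 11 of 15 with mucometra and 5 of 16 with CEH. The rise against diestrus was 2.75-fold in pyometra (1.46 ± 0.22, adjusted p = 6.81e-07). SLC4A4 rose 4.30-fold in mucometra (2.10 ± 0.24, 1.07e-08), and in CEH 2.20-fold (1.14 ± 0.26, 0.00149). The difference between pyometra and mucometra was -0.65 ± 0.27 and did not pass (0.0613). SLC4A7 (NBCn1), an electroneutral relative, passed the adjusted p in all 3 lesions but stayed short of 2-fold, at 0.88 ± 0.14 in pyometra, 0.79 ± 0.15 in mucometra and 0.42 ± 0.15 in CEH. SLC4A2 (AE2), the widespread chloride-bicarbonate exchanger of the base of the cell, differed from diestrus by 0.05 ± 0.11, -0.04 ± 0.12 and -0.03 ± 0.10 in pyometra, mucometra and CEH.

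Among the 7 SLC9 sodium-proton exchangers, SLC9A9 (NHE9), which acts in endosomes rather than at the cell surface, was the one called. Its lowest, median and highest values were 6.93, 7.55 and 8.39 in pyometra, 6.86, 7.62 and 8.23 in mucometra, 6.11, 6.99 and 8.24 in CEH, and 5.42, 6.39 and 6.81 in diestrus. All 17 dogs with pyometra and all 15 with mucometra lay above every diestrus dog, and so did 12 of 16 with CEH. In mucometra against diestrus SLC9A9 was the 1 member with no overlap, where 0.213% of all genes had none. The changes were 1.26 ± 0.13 in pyometra (adjusted p = 1.35e-10), 1.23 ± 0.14 in mucometra (4.21e-09) and 0.86 ± 0.16 in CEH (0.000373, under 2-fold). SLC9A2 and SLC9A3, exchangers of the luminal surface in gut and kidney, were not called in any comparison.

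Of the 10 SLC26 anion exchangers, SLC26A4 rose and SLC26A3 fell. SLC26A4 (pendrin), a chloride, bicarbonate and iodide exchanger of the luminal membrane, held 5.55, 8.95 and 11.33 in pyometra, 4.35, 6.09 and 10.03 in mucometra, 3.91, 4.85 and 10.25 in CEH, and 4.21, 5.46 and 11.19 in diestrus. All groups overlapped, and 5 of 17 dogs lay above 10 in pyometra, with 1 each in mucometra, CEH and diestrus. Pyometra was 5.59-fold higher than diestrus (2.48 ± 0.60, adjusted p = 0.000606), 4.83-fold higher than mucometra (2.27 ± 0.56, 0.00246) and 9.32-fold higher than CEH (3.22 ± 0.57, 4.54e-05). Mucometra and CEH differed from diestrus by 0.21 ± 0.62 (0.813) and -0.74 ± 0.62 (0.408), so the call of SLC26A4 in the fluid-filled comparison came with a large change in pyometra and not in mucometra. The SD of SLC26A4 lay above that of 99.7% of genes or more in each of the 4 groups.

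SLC26A3 (DRA), the chloride-bicarbonate exchanger of the colon's surface, fell in pyometra (-1.36 ± 0.26, adjusted p = 3.41e-05) and mucometra (-1.25 ± 0.28, 0.000328), with medians of 3.70 in pyometra, 3.84 in mucometra, 3.84 in CEH and 4.66 in diestrus. Its mean over all dogs was 4.29, below that 4.45, and the highest diestrus dog held 7.68. In CEH the difference was -0.81 ± 0.32 (0.0565). SLC26A5 (prestin), the motor protein of outer hair cells, differed from diestrus by -0.39 ± 0.14 in pyometra (0.0141) and by 0.52 ± 0.16 in CEH (0.0146). Between the lesions it was lower in pyometra than in CEH (-0.91 ± 0.18, 0.000185), with medians of 5.30 in pyometra and 6.08 in CEH and 11 of 17 dogs with pyometra below every CEH dog, and lower than in mucometra (-0.72 ± 0.16, 0.000909). None of these reached 2-fold.

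Markers of immune cells moved with the diagnoses. Of all genes, 6.72% were called higher and 3.26% lower in pyometra against diestrus, 3.56% and 2.8% in mucometra, and 0.865% and 0.953% in CEH. By adjusted p alone these shares were 22.7% and 28.7%, 22.4% and 24.8%, and 12.8% and 13.4%. Of 15 measured macrophage and monocyte markers, 14 rose in pyometra against diestrus, 4 in mucometra and 0 in CEH, where 5 passed limma's adjusted p without the fold, and none fell. The mean of this list, each gene centred over all dogs, ran from -0.07 to 2.467 in pyometra, from -0.643 to 1.037 in mucometra, from -1.572 to 0.807 in CEH and from -1.411 to 0.205 in diestrus. Of 14 neutrophil markers 9 rose in pyometra, 3 in mucometra and 0 in CEH, where 3 passed limma's adjusted p without the fold, while 1 fell in mucometra. The mean of the neutrophil list ran from -0.368 to 3.09 in pyometra and from -0.608 to 0.137 in mucometra. In CEH it ran from -0.755 to -0.055 and in diestrus from -0.828 to -0.25. Pyometra dogs 100, 198, 207 and 214 held -0.368, -0.277, -0.318 and -0.345, within the mucometra range, and the other pyometra dogs held 0.538 or more. Of 19 simple epithelium markers, 2 rose and 4 fell in pyometra, 1 rose and 2 fell in mucometra, and 0 rose and 1 fell in CEH. By limma's adjusted p alone 11, 13 and 12 of the 19 were lower in pyometra, mucometra and CEH, and 4, 3 and 0 were higher, with median log2 fold changes of -0.479, -0.707 and -0.497. The mean of the epithelial list ran from -1.072 to 0.726 in pyometra, from -0.853 to 0.572 in mucometra, from -1.229 to 0.501 in CEH and from -0.14 to 1.014 in diestrus. With this list as a covariate, SCNN1A fell short of 2-fold in mucometra (-0.99 ± 0.22, adjusted p = 0.000315) and in CEH (-0.56 ± 0.18, 0.0313) against diestrus and stayed called in pyometra (-1.48 ± 0.20), SLC12A2 stayed called in all 3, and SLC4A4 in CEH (0.996) and SCNN1A in the fluid-filled comparison (-0.85) also fell short of 2-fold. In pyometra against diestrus, 9 of 14 B and plasma cell, 7 of 16 T and NK cell and 1 of 13 smooth muscle markers rose and none fell, 5 of 15 squamous and basal, 6 of 17 endothelial and 8 of 17 stromal fibroblast markers rose and 1 of each fell, and by limma 0 of 17 ciliated and 0 of 4 erythroid markers were called, with 5 and 2 past the adjusted p alone. In mucometra against diestrus 1 of the 4 erythroid markers rose, ALAS2, the haem synthesis enzyme of red cell precursors (1.92 ± 0.45, adjusted p = 0.000494, named after its values had been seen), and 2 passed the adjusted p alone. The mean of the erythroid list ran from -0.561 to 1.759 in pyometra, from -0.379 to 3.016 in mucometra, from -0.494 to 0.919 in CEH and from -0.549 to 0.366 in diestrus, and mucometra dogs 191, 90 and 215 held 3.016, 1.574 and 1.036. Its part in the results for mucometra was not tested. Other lists also shifted in mucometra and CEH. In mucometra 5 of 16 T and NK cell and 4 of 17 stromal fibroblast markers rose. So did 2 of 13 smooth muscle and 1 of 14 B and plasma cell markers, and no marker of these 4 lists fell. There 1 squamous and basal marker rose and 1 fell, and 1 endothelial marker fell. In CEH 2 smooth muscle markers and 1 B and plasma cell marker rose. By adjusted p alone all 16 T and NK cell markers were higher in mucometra. In CEH 9 of 17 stromal and 7 of 13 smooth muscle markers were. No marker could be scored as absent, since the arrays carry no detection calls.

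Within diagnoses, ATP1B3, SLC26A4 and CFTR were related to the macrophage list in some groups, depending in part on the statistic. Pearson's r of ATP1B3 with the list was 0.585 in pyometra (Spearman's rho 0.535), 0.627 in mucometra (0.537), 0.092 in CEH (0.343) and 0.628 in diestrus (0.667), with permutation p of 0.015, 0.012, 0.73 and 0.0018 for r and adjusted p of 0.035, 0.032, 0.79 and 0.014. The permutation p of rho, adjusted, was 0.063, 0.083, 0.31 and 0.0078, so that by rho the relation passed in diestrus alone. Without the 2 dogs farthest from the median of the list, r was 0.353, 0.646, 0.086 and 0.613. Pyometra dogs 100, 198, 207 and 214, the lowest of their group for the neutrophil list, held its lowest ATP1B3 values, 9.54, 9.48, 9.07 and 9.39. They were also its lowest for the macrophage list, at 0.498, -0.07, 0.023 and 0.479. The relation was not tested without these dogs. For SLC26A4, r was 0.576 in pyometra (rho 0.525, permutation p = 0.016, adjusted 0.036), -0.152 in mucometra (rho -0.064, p = 0.59), -0.122 in CEH (rho 0.035, p = 0.65) and 0.545 in diestrus (rho 0.703, p = 0.01, adjusted 0.031), and without 2 dogs 0.537, -0.091, -0.263 and 0.479. By rho the adjusted p for SLC26A4 was 0.069 in pyometra and 0.0063 in diestrus. CFTR had r of 0.063 with this list in pyometra (rho 0.142, permutation p = 0.81), 0.409 in mucometra (rho 0.275, p = 0.13), 0.536 in CEH (rho 0.714, p = 0.032) and 0.437 in diestrus (rho 0.535, p = 0.045). The adjusted p was 0.061 in CEH and 0.082 in diestrus by r, and 0.012 and 0.04 by rho, and without 2 dogs r was 0.095, 0.438, 0.667 and 0.547 in the 4 groups.

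With the macrophage list as a covariate, the change of ATP1B3 in pyometra against diestrus was -0.22 (adjusted p = 0.798) and that of SLC26A4 was -0.96 (0.612), so neither call held and both signs turned. The list and the diagnoses overlap strongly, and with this covariate the genes called among all 15947 in pyometra against mucometra fell to 0, against 582 without it. With it, 8 members were called against diestrus in pyometra (6.53% of all genes), 10 in mucometra (5.42%) and 2 in CEH (0.897%). No member was called with it in pyometra against CEH, where 0.069% of all genes were. CFTR and SCNN1B remained called in the fluid-filled comparison with the covariate, the only 2 of the 7 that did, where 1.27% of all genes were called.

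**Figure D4:**
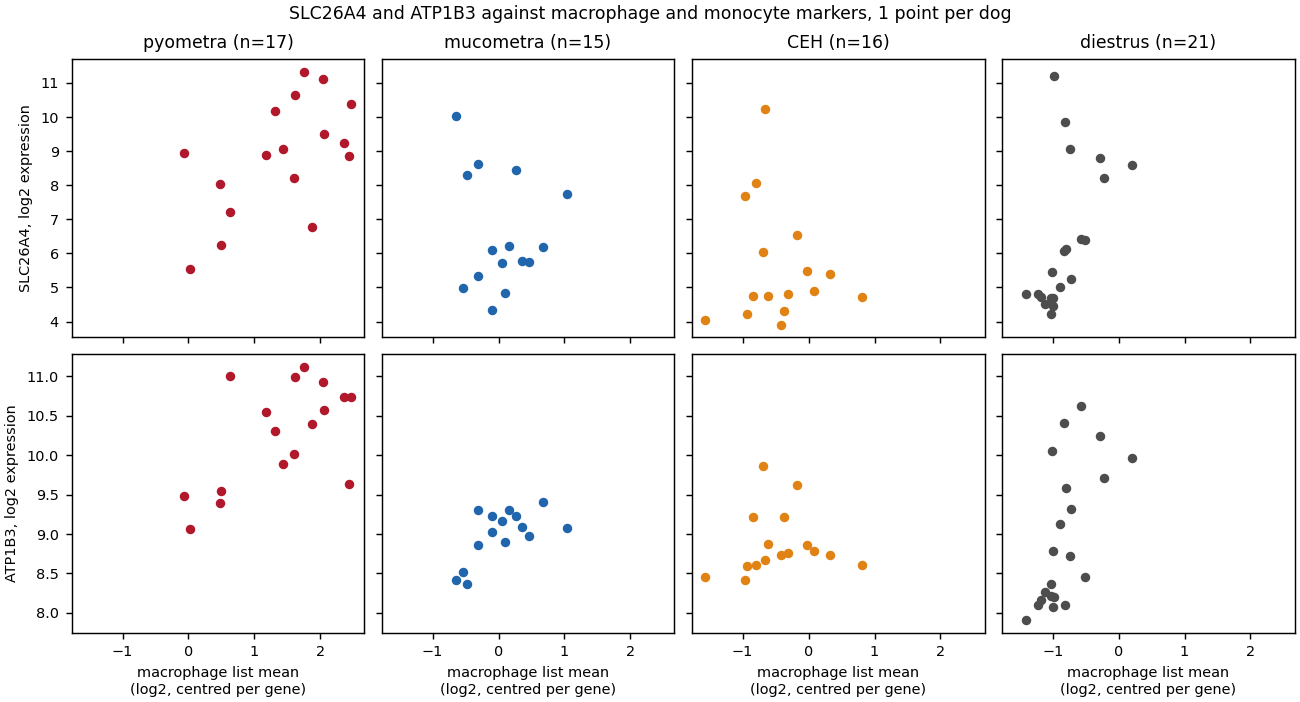
Log2 expression of SLC26A4 (upper row) and ATP1B3 (lower row) in each dog (vertical axis) against the mean of 15 macrophage and monocyte markers (horizontal axis, log2, centred per gene), 1 panel per diagnosis. Pearson's r is 0.576 for SLC26A4 and 0.585 for ATP1B3 in pyometra, and -0.122 and 0.092 in CEH.

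Relations among the transport genes were also computed within each diagnosis. With those to the lists they made 10 relations and 40 tests (100000 permutations, two-sided, Benjamini-Hochberg over the 40), all chosen after the values had been seen, of which 18 had an adjusted p under 0.05 by Pearson's r and 15 by Spearman's rho. SCNN1B and SCNN1G moved together in the lesions, with r of 0.816 in pyometra (rho 0.752, permutation p = 7e-05, adjusted 0.0011), 0.840 in mucometra (rho 0.850, p = 8e-05, adjusted 0.0011) and 0.887 in CEH (rho 0.850, p = 1e-05, the smallest the permutations can give, adjusted 0.0004). Without 2 dogs r was 0.736, 0.792 and 0.797. Here and below, the 2 left out in a group lay farthest from the median of the first gene named, or of the list where 1 was used. In diestrus r was 0.792 (permutation p = 0.0023, adjusted 0.014) but rho was 0.122 (p = 0.6), and without 2 dogs r was 0.015, so that the relation there rested on those dogs. SCNN1A was related to SCNN1B in mucometra (r 0.725, rho 0.779, permutation p = 0.0032, adjusted 0.016, 0.637 without 2 dogs) and did not pass in pyometra (r 0.021, rho 0.076, p = 0.94), CEH (-0.264, rho -0.280, p = 0.33) or diestrus (0.112, rho -0.076, p = 0.63). Without 2 dogs r was 0.528 in pyometra, -0.164 in CEH and 0.126 in diestrus, so the value in pyometra rested on 2 dogs, and the difference between groups was not tested.

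**Figure D5:**
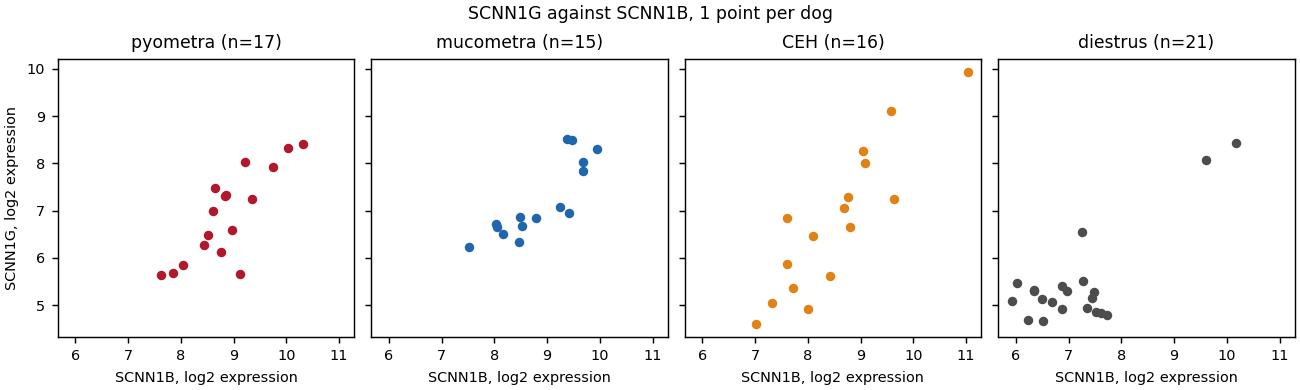
Log2 expression of SCNN1G (vertical axis) against SCNN1B (horizontal axis), 1 point per dog and 1 panel per diagnosis. The points rise together in pyometra (r 0.816), mucometra (0.840) and CEH (0.887), while in diestrus 2 dogs lie at the upper right and the other 19 form a cloud with no slope.

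CFTR and SLC12A2, the luminal exit and the basal entry of chloride, were related with opposite signs in different groups. Their r was 0.592 in pyometra (rho 0.591, permutation p = 0.013, adjusted 0.032, 0.698 without 2 dogs), -0.215 in mucometra (rho -0.100, p = 0.44), -0.564 in CEH (rho -0.574, p = 0.024, adjusted 0.051, -0.532 without 2 dogs) and -0.540 in diestrus (rho -0.703, p = 0.01, adjusted 0.031, -0.635 without 2 dogs). The 2 diestrus dogs left out, those farthest from the CFTR median, were dogs 7 and 84 and not the pair that stood apart for SLC12A2. The difference between groups was not tested. CFTR and SLC4A4 were related in CEH (r 0.679, rho 0.674, permutation p = 0.0047, adjusted 0.021, 0.570 without 2 dogs) and diestrus (0.539, rho 0.523, p = 0.011, adjusted 0.031, 0.525 without 2 dogs). In mucometra r was 0.743 (rho 0.502, p = 0.0013, adjusted 0.013, by rho 0.11) but 0.381 without 2 dogs, and in pyometra it was -0.104 (rho -0.052, p = 0.69). CFTR was related to the simple epithelium list in pyometra (r 0.668, rho 0.652, permutation p = 0.0024, adjusted 0.014, 0.569 without 2 dogs), while r was -0.388 in mucometra, -0.362 in CEH and 0.475 in diestrus with adjusted p of 0.26, 0.27 and 0.056. SCNN1A and SLC12A2 were related in CEH (r 0.659, rho 0.723, permutation p = 0.0052, adjusted 0.021, 0.585 without 2 dogs) and in none of the other 3 groups, and SLC26A4 and ATP1B3 in pyometra (r 0.636, rho 0.646, permutation p = 0.0063, adjusted 0.023) but with r of 0.429 without 2 dogs.

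Other genes of the same pathways were read from 3 lists. Of 32 measured partner channels, pumps and enzymes, 5 rose in the fluid-filled comparison and none fell, where 3.23% of all genes rose and 1.32% fell. By adjusted p alone 15 were higher and 3 lower, where 21.5% and 26.5% of all genes were. ATP12A, the non-gastric proton-potassium pump of the luminal membrane, held 4.26, 10.12 and 11.61 in pyometra, 3.82, 5.97 and 10.30 in mucometra, 3.76, 4.27 and 10.33 in CEH, and 3.75, 4.20 and 10.96 in diestrus, and rose against diestrus by 4.29 ± 0.68 in pyometra (19.5-fold, adjusted p = 1.56e-06) and by 1.72 ± 0.65 in mucometra (3.30-fold, 0.0269). CA12, a membrane carbonic anhydrase that makes bicarbonate, had medians of 8.81 in pyometra, 7.54 in mucometra, 6.16 in CEH and 4.89 in diestrus, and rose in all 3 lesions, by 3.68 ± 0.29 in pyometra (3.14e-13), 2.42 ± 0.33 in mucometra (2.21e-07) and 1.02 ± 0.29 in CEH (0.00943). Above every diestrus dog for CA12 lay 16 of 17 dogs with pyometra and 12 of 15 with mucometra. ATP6V1B1, a proton pump subunit, TRPV4, a cation channel that senses osmotic stress, and CA2, the cytosolic carbonic anhydrase, changed by 1.57 ± 0.28, 1.14 ± 0.16 and 1.09 ± 0.18 in the fluid-filled comparison.

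Among 26 regulators of channels and transporters, FXYD4 and FXYD5 rose and STK39 fell in the fluid-filled comparison, against the same shares of all genes. By adjusted p alone 9 of the 26 were higher and 8 lower, where 21.5% and 26.5% of all genes were. FXYD4 and FXYD5 are small proteins that tune the Na,K-ATPase, and changed by 2.10 ± 0.59 (adjusted p = 0.00204) and 1.32 ± 0.13 (2.07e-13) in the fluid-filled comparison. STK39 (SPAK), the kinase that activates SLC12A2, changed by -1.57 ± 0.22 there (1.03e-08), with medians of 8.05 in pyometra, 8.37 in mucometra, 8.69 in CEH and 10.76 in diestrus, and fell like SLC12A2 in each of the 3 lesions against diestrus. SGK1, a kinase that holds ENaC at the cell surface, rose in pyometra (1.17 ± 0.20, 6.12e-06) and mucometra (1.26 ± 0.24, 3.86e-05) against diestrus. Of 15 receptors that regulate secretion, SCTR, the secretin receptor, rose in the fluid-filled comparison (1.49 ± 0.27, 4.21e-06) and none was called lower. By adjusted p alone 2 of the 15 were higher and 4 lower there, where 21.5% and 26.5% of all genes were, so neither count stood out. The median log2 fold change of the 15 was -0.137. Against diestrus 2 were called higher and 1 lower in pyometra (6.72% and 3.26% of all genes). Mucometra also had 2 higher and 1 lower (3.56% and 2.8%). SCTR held medians of 6.45 in pyometra, 6.91 in mucometra, 5.51 in CEH and 5.35 in diestrus. MUC1, a membrane mucin of the epithelial list, rose in the fluid-filled comparison as well (1.67 ± 0.29, 1.71e-06). EPCAM, an adhesion molecule of epithelia, fell in pyometra against diestrus (-1.07 ± 0.15, 1.91e-07). SLC5A1, the sodium-glucose cotransporter, fell in mucometra (-1.49 ± 0.55, 0.0242). CA2, SGK1, EPCAM and SLC5A1 were named after their values had been seen.

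The lesions were also set against one another. Between pyometra and mucometra 3 of the 55 genes were called, SLC26A4, CFTR and ATP1B3, all higher in pyometra, where 3.65% of all genes were called (2.82% higher). The same 3 were called in pyometra against CEH, where 5.95% of all genes were (4.28% higher). These 3 members are 5.45% of the 55, a share near that of all genes in both comparisons. Between mucometra and CEH only CFTR was called. SCNN1A, SCNN1B, SCNN1G, SLC12A2 and SLC4A4 were called in each lesion against diestrus and in no comparison between lesions.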

How the data were processed

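Endometrial RNA of 69 dogs was hybridised to Affymetrix Canine Gene 1.0 ST arrays. The authors applied RMA background correction and quantile normalization, and the deposited log2 values were used unchanged. Of 32391 probe sets, 16545 carried 1 symbol, giving 15947 genes after 598 further probe sets of the same genes were set aside. All 55 members matched a RefSeq symbol. Groups came from the sample titles. Comparisons were fitted with limma 3.58.1 in R 4.3.3 (lmFit and eBayes, tested on simulated data first), the fluid-filled comparison on all dogs and the others on the 2 groups compared. Figures used Python 3.11.15 and matplotlib 3.10.9. The number of arrays limits the precision.

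The members and gene lists were chosen with earlier results of these data known. Named were all members called in the fluid-filled comparison, up to 10 called members of largest change in each other comparison, a fixed core (CFTR, ANO1, ENaC, ATP1B1, SLC12A2, SLC4A4 and SLC26A4), and up to 4 called genes of each of the transport and epithelial lists. Genes named beside these passed by adjusted p alone or were chosen after their values were seen. Alternatives covered the call rule, probe sets, dim genes, centring, variance model, test, covariates and dogs. The most alike pair of arrays, pyometra dog 100 and mucometra dog 216 (r = 0.9928), crossed diagnoses. The next pair, diestrus dogs 144 and 97, had r = 0.9889. Dogs 100 and 216 had equal values in 314 genes and a median absolute difference of 0.14, against 273 and 0.16 in the next pair. Whether the 2 arrays came from different animals cannot be told from the values, and they were kept as 2 dogs by their titles. Pyometra dog 207 was more like the arrays of all other dogs (median r 0.9395) than those of its own diagnosis (0.9237) and closest to mucometra dogs 219 and 172. For diestrus dog 25 these medians were 0.9397 and 0.9383.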

Additional observations from a re-analysis of the deposited data

How the results depend on the processing

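The fluid-filled comparison, pyometra, mucometra and CEH against diestrus, pyometra against mucometra, pyometra against CEH and mucometra against CEH had 7, 12, 9, 5, 3, 3 and 1 called members. With adjusted p alone the first 6 counts were 28, 36, 24, 12, 12 and 18. With Bonferroni adjustment they were 4 in the fluid-filled comparison, 6 in pyometra and 0 in CEH against diestrus, 1 in pyometra against mucometra and 0 in mucometra against CEH. With the case number as a covariate they were 5 in pyometra against CEH and 0 in mucometra against CEH. The call of CFTR in mucometra against CEH was also lost (0 called) with the mean over probe sets, the methods' t-test, and without dogs 100 and 216. Array weights and the trended, robust fit changed no call of a named gene. No paired analysis was possible because the case numbers in the titles are all different.

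Leaving out each dog in turn, an alternative chosen after seeing the data, gave 3 to 8 called members in the fluid-filled comparison, 12 to 13, 9 to 10 and 5 to 5 in pyometra, mucometra and CEH against diestrus, 3 to 3 in pyometra against mucometra, 3 to 4 in pyometra against CEH and 0 to 2 in mucometra against CEH. The fluid-filled count was 3 without CEH dog 81, 4 without CEH dog 175 and 4 without diestrus dog 79. SCNN1A, SCNN1B, SLC12A2 and SLC12A8 lie at the 2-fold threshold there and were called in 48, 50, 68 and 58 of the 69 fits, while CFTR, SLC26A4 and SLC4A4 were called in all 69. The counts of 0 in mucometra against CEH came without CEH dogs 29, 81, 83, 127, 131, 155, 162, 175, 196 or 226 or mucometra dogs 91, 92, 172, 174, 182, 191, 200, 215, 216, 219 or 220, and the counts of 2 without mucometra dogs 90 or 227.

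With the macrophage list as a covariate, also chosen after seeing the data, the counts were 2 in the fluid-filled comparison, 2 in CEH against diestrus, and 0 in pyometra against mucometra, pyometra against CEH and mucometra against CEH. Of the named genes' 87 called log2 fold changes 57 lost their call, and 30 values of 189 changed sign, 3 of which had been called. Against diestrus in pyometra, the called changes of SLC26A4 and ATP1B3 became -0.96 and -0.22, and ATP1B1 was -0.14. In mucometra against diestrus SLC26A4 was -0.78, ATP1B3 -0.79 and ATP1B1 -0.033, in CEH ANO1 was -0.066, and in the fluid-filled comparison SLC12A1 was -0.63. STK39, called in pyometra against CEH, became 0.26 there. The other sign changes were of values not called. In pyometra against CEH they were 0.64 for SCNN1A, 0.39 for SLC12A2, -0.005 for SLC4A4, -1.32 for SLC12A1, 0.10 for SLC26A3, -0.11 for SLC9A9, -0.10 for SGK1, 0.14 for SLC5A1 and -0.032 for SCNN1G. In pyometra against mucometra they were -0.035 for SLC12A1, 0.038 for STK39, 0.097 for EPCAM, -0.16 for FXYD4, 0.16 for ATP1B1, 0.053 for SLC26A3, -0.079 for SLC9A9, 0.087 for SCNN1A and 0.21 for SCNN1G. In mucometra against CEH they were 0.039 for SCNN1A, -0.32 for SCNN1G and -0.086 for SCNN1B. The cause was not tested.

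Changes of sign under the other alternatives were all of values not called. With arrays centred on their medians ATP1B1 was -0.028 in pyometra against diestrus, and SLC9A9 and SCNN1B were -0.014 and -0.018 in pyometra against mucometra. With the case number ATP1B1 was 0.03 in the fluid-filled comparison, SLC12A1 0.072 in mucometra against CEH, SLC12A8 0.037 in pyometra against mucometra and ANO1 0.026 in mucometra against diestrus. With the simple epithelium list SLC26A4 was 0.53 in CEH against diestrus, SCNN1B -0.046 in pyometra against mucometra and ATP1B1 0.009 in the fluid-filled comparison. ATP1B3 in mucometra against diestrus was -0.011 without dogs 100 and 216. Without diestrus dogs 25 and 152, chosen after seeing the data, it was -0.067, and ATP1B1 was 0.007 in the fluid-filled comparison, where SCNN1A fell short of 2-fold (-0.99) and SCNN1G passed (1.09).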
